A study of Mus musculus with 8 samples.

Results

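Endothelial identity genes are the genes by which the cells lining blood and lymphatic vessels are recognised. The 34 genes described here were chosen by symbol, as pan-endothelial, arterial, venous and lymphatic genes, and all 34 were found among the 18561 genes of the deposited table. Expression was measured by Smart-seq2, a method that amplifies full-length cDNA from few cells, in 8 libraries of enteric neural crest cells of mouse embryos, which migrate along the gut and give rise to its nervous system. The cells came from dissociated gastrointestinal tracts at embryonic day 14.5 and were sorted with antibodies against CD271 and CD57, about 200 cells in a tube. Of the 8 libraries, 5 were labelled Emb knockdown and 3 WT, with no strain, promoter or knockdown method in the labels and no treatment other than the sort.

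Endothelial cells do not derive from the neural crest, but vessels run through every layer of the gut wall in which neural crest cells migrate. Vascular endothelial growth factors act through the receptor kinases encoded by Kdr, Flt1 and Flt4, angiopoietins act through the receptor encoded by Tek, and transcription factors of the ETS and SoxF families switch on much of the endothelial programme. Several of the 34 genes are also expressed by blood cells: Lyl1 and Tal1 are haematopoietic transcription factors, Pecam1 and Icam2 are found on leukocytes and platelets, Cd34 marks blood progenitors, and Lyve1 marks some tissue macrophages.

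Promoters of the members were taken from RefSeq for GRCm38.p6, as the 250 bases before an annotated start. They are shown for the genes whose calls held in every alternative and were in the table of promoters (Tie1, Cldn5), for the member with the largest difference (Gja5), and for a pair that was also abundant in the libraries labelled knockdown 1 and 2 (Cd34, Tal1). Each is printed 5′ to 3′ on the gene's strand, with capitals marking matches on either strand to the letters of 3 motifs. For ETS factors these were CAGGAA and, as a second form of the same motif, CCGGAA. For GATA factors the letters searched were AGATAA. For Sox factors they were ACAATG and, as a second form of that motif, ACAAAG.
Tie1, chr4:118489850-118490099, minus strand: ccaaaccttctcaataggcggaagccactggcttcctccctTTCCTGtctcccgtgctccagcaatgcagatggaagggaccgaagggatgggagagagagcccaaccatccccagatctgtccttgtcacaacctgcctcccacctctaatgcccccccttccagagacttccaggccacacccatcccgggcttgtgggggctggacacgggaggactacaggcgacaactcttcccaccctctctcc
Cldn5, chr16:18776597-18776846, plus strand: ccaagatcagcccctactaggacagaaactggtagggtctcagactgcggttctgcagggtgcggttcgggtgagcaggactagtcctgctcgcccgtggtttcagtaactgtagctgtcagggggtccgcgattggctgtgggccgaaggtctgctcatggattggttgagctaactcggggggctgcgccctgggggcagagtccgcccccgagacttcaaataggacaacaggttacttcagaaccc
Gja5, chr3:97032152-97032401, plus strand: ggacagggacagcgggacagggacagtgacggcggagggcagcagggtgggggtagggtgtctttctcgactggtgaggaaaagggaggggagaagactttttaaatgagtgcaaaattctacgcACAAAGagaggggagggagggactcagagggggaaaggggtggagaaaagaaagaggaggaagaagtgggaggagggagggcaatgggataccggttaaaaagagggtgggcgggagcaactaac
Cd34, chr1:194938571-194938820, plus strand: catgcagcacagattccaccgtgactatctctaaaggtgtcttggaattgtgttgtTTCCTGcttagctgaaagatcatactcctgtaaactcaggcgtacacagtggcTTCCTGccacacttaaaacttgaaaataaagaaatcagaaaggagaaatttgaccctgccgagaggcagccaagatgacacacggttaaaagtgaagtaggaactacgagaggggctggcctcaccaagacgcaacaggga
Tal1, chr4:115056176-115056425, plus strand: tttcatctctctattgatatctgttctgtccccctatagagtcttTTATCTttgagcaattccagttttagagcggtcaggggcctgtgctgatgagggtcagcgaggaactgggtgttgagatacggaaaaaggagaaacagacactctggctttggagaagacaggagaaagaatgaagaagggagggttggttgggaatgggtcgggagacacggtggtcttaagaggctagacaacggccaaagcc

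The 250 bases before the start held 1 ETS match in Tie1, 2 in Cd34 and 0 in Cldn5, Gja5 and Tal1. Gja5 held 1 Sox match and Tal1 held 1 GATA match. Of the 34 members, 21 were matched to 27 promoters. An ETS match was found in 12 of these 27 promoters (44.4%), against 37.2% of 18054 promoters of the table's genes. A Sox match was found in 8 (29.6%, against 19.9%) and a GATA match in 2 (7.41%, against 7.29%). The 3 motifs were searched separately, so their matches may overlap at the ends, and a match of letters is not a bound site.

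The 8 libraries held 20116607 to 26959265 counts. A count of 3, the upper limit that a count of 0 allows from counting error, corresponded to 0.0966 to 0.155 CPM (counts scaled to library size). The labels do not state whether each library is a different animal, and p-values rest on variation among libraries that could be technical. Emb, the targeted gene, was at 353, 349, 37.2, 21.4 and 21.7 CPM across libraries labelled knockdown 1 to 5 and at 16.9, 17.7 and 15.9 CPM in WT 1 to 3. It was thus not lower in any library labelled knockdown, and every direction below is between libraries so labelled. The libraries labelled knockdown 1 and 2 stood apart: 20 macrophage genes summed to 29564 and 24905 CPM there, against 1505 to 2542 CPM in those labelled knockdown 3 to 5 and 414 to 679 CPM in WT. The 15 neural crest genes of the label summed to 223 and 173 CPM in the same pair, with Sox10 at 5.51 and 0 CPM, against 1489 to 1646 and 3953 to 4387 CPM. Each result is therefore given with all 8 libraries and with the 6 that leave this pair out.

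In WT the endothelial genes were detected together. All but Selp were above 1 CPM in all 3 WT libraries, and the 34 genes took 0.141%, 0.126% and 0.172% of the counts of WT 1, 2 and 3. They took 0.0524%, 0.0403% and 0.0265% in the libraries labelled knockdown 3, 4 and 5. In the libraries labelled knockdown 1 and 2 they took 0.0455% and 0.0521%, a similar share made of other genes. The 7 members most abundant in that pair, Lyl1, Lyve1, Cd34, Pecam1, Icam2, Eng and Tal1, held 93.0% and 93.2% of the members' summed CPM there, against 26.2% to 34.05% in the other 6 libraries. The other 27 members summed to 42.0 and 44.9 CPM in the pair, to 323, 277 and 176 CPM over libraries labelled knockdown 3, 4 and 5 and to 920, 787 and 1134 CPM in WT. Of the 34 genes, 9 and 11 had a count of 0 in the libraries labelled knockdown 1 and 2, 1 or 2 in those labelled 3 to 5, and at most 1 in a WT library. The shares are of unscaled counts, so their order can differ from that of CPM. The members took a smaller share in knockdown 1 than in knockdown 3 but summed to 601 CPM against 490 CPM. Shares and sums are over a sorted bulk of cells, in which fewer endothelial cells and less RNA per cell cannot be told apart.

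**Figure D1:**
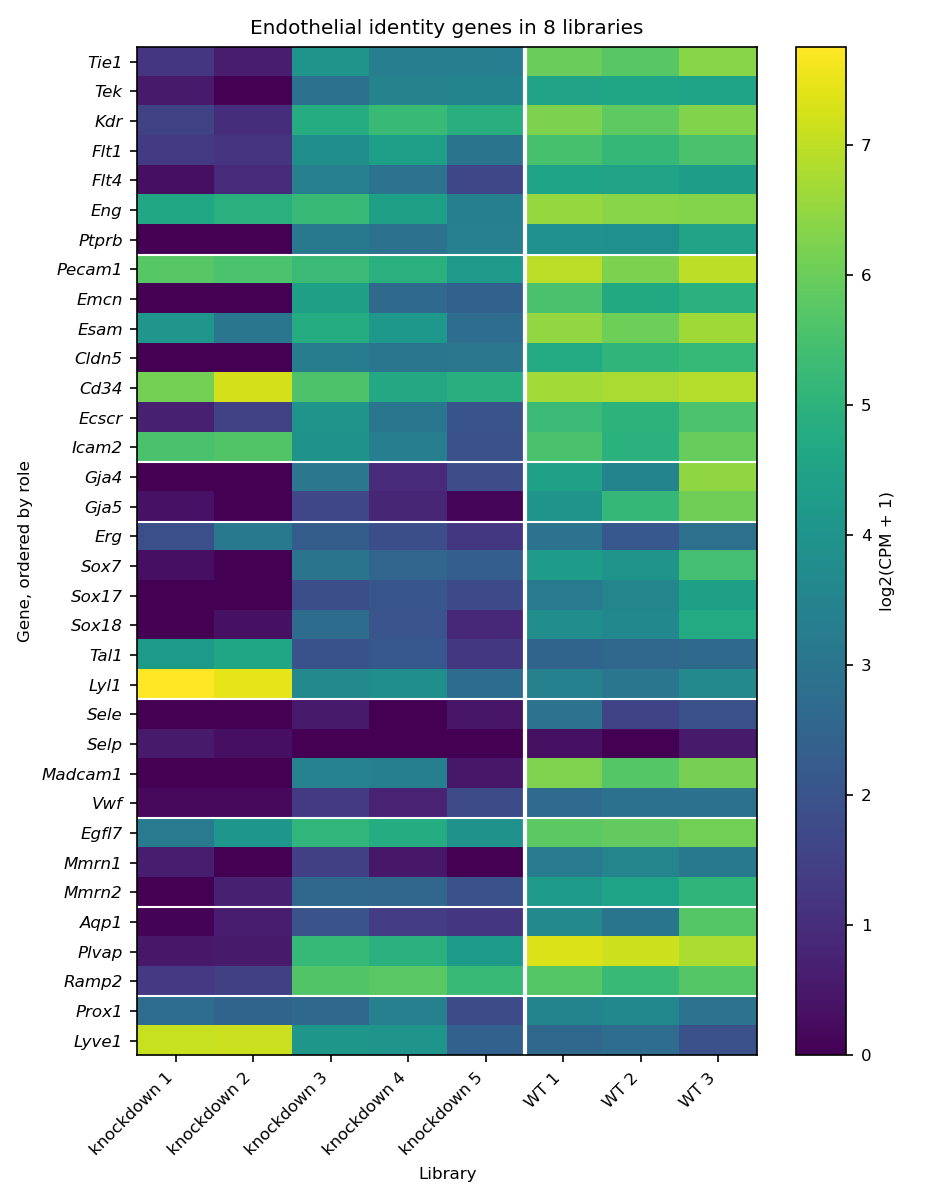
Level of each of the 34 endothelial genes (rows, grouped by role) in each of the 8 libraries (columns) as log2(CPM + 1), in colour. The libraries labelled knockdown 1 and 2 are near 0 for most genes but bright for Lyl1, Lyve1, Cd34, Pecam1 and Icam2, those labelled knockdown 3 to 5 are intermediate, and the WT libraries are brightest for most genes.

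With all 8 libraries, the endothelial genes were mostly lower in the libraries labelled knockdown, but none passed the threshold (0.05 for the p of edgeR's quasi-likelihood test, adjusted by Benjamini-Hochberg over every gene tested). Of the 34 members 33 passed the filter on low counts and Selp did not, and 30 of the 33 had a log2 fold change below 0, against 46.5% of all 15411 genes tested. The median was -2.47, against 0.07 over all genes. At an unadjusted p under 0.05 there were 18 lower members (5.9% of all genes) and 2 higher (12.7%), while adjusted p values called 0 members in either direction (0.0% of all genes). DESeq2's Wald test called 12 lower (3.91%) and 2 higher, Lyl1 and Lyve1 (10.5%), and limma voom with quality weights called 17 lower (11.5%) and 1 higher, Lyve1 (12.5%). For 25 of the 33 genes every library labelled knockdown lay below every WT library (11.9% of all genes), and for 0 every one lay above (10.8%).

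Without the libraries labelled knockdown 1 and 2, 26 of the 33 tested endothelial genes fell and 7 did not pass, with no gene higher, where 9.37% of all 15115 genes fell and 11.1% rose. The median log2 fold change was -2.01, against 0.02 over all genes, and the range was -5.23 (Gja5) to 1.38 (Lyve1, which did not pass). For 28 of the 33 genes the 3 libraries labelled knockdown lay below the 3 WT libraries (23.0% of all genes). No member lay above WT in all 3 (20.4% of all genes). DESeq2 called 27 lower (13.8%) and 1 higher, Lyve1 (16.2%), and limma voom called 24 lower (22.2%) and 1 higher, Lyve1 (23.4%). The count rested on single libraries. It was 5 without the library labelled knockdown 4 (0.492% of all genes), 7 without WT 3 (0.828%), 13 without WT 1 (3.61%) and 13 without WT 2 (1.25%). It was 23 without the library labelled knockdown 5 and 27 without knockdown 3, with the share of all genes not computed. The median log2 fold change was -2.26 to -1.78 over the libraries left out. The calls of Tie1, Cldn5, Mmrn2 and Plvap held in all 14 alternatives. Macrophage, mesenchyme and neural crest genes also differed between these 6 libraries, as given near the end, and their part in the endothelial difference was not tested.

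**Figure D2:**
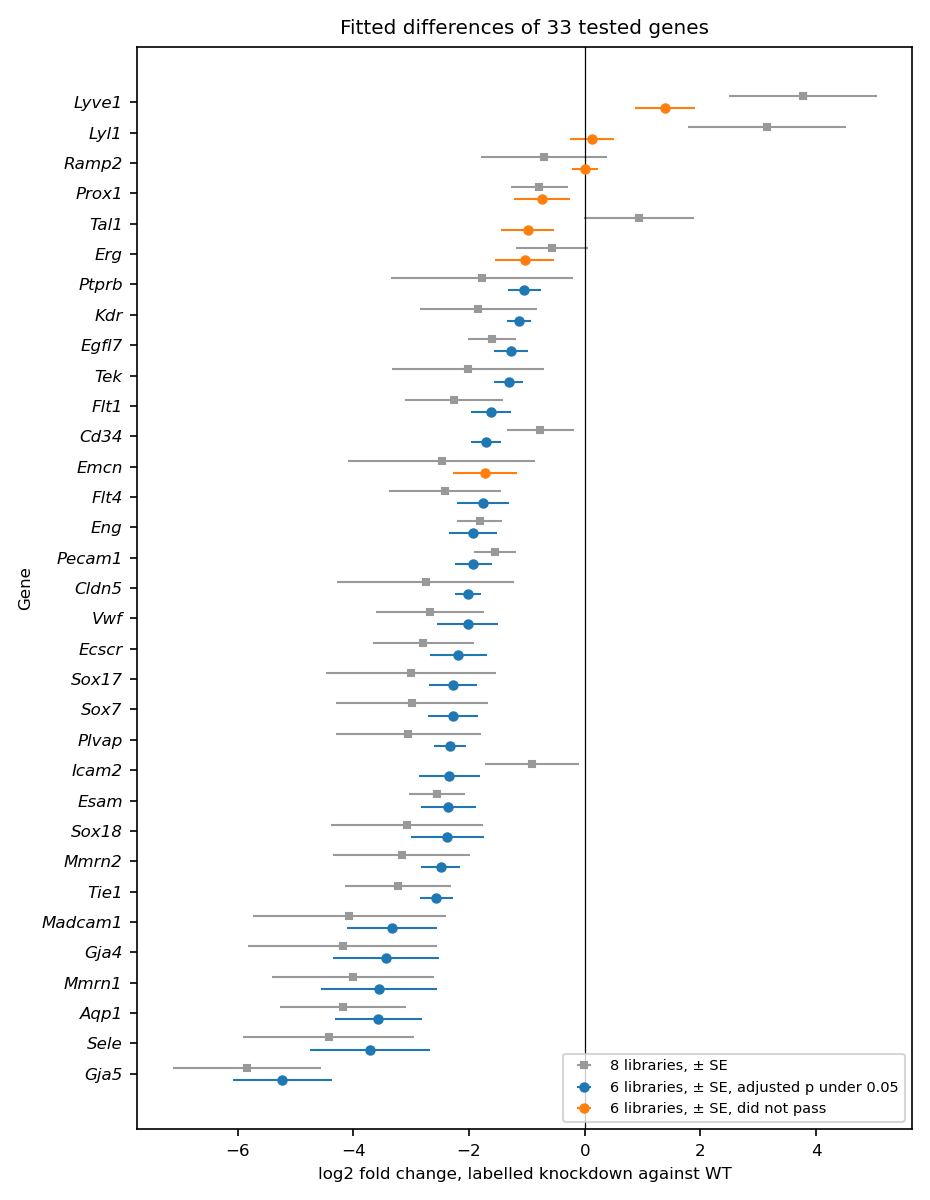
Log2 fold change of each of the 33 tested genes between libraries labelled knockdown and WT, with the standard error as bars, from 8 libraries (grey squares) and from the 6 without the libraries labelled knockdown 1 and 2 (circles, blue where the adjusted p was under 0.05, orange where not). Most genes lie left of 0 in both, the grey bars are wider for most genes, and Lyve1, Lyl1 and Tal1 are on the right with 8 libraries.

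All 7 genes of receptors and the receptor phosphatase fell in the 6 libraries, where 9.37% of all genes fell. Tie1, an orphan receptor kinase that modulates angiopoietin signalling, was at 1.34, 0.518, 15.2, 8.89 and 8.9 CPM across libraries labelled knockdown 1 to 5 and at 61.5, 52.7 and 82.4 CPM in WT 1 to 3. The groups did not overlap, and knockdown 1 and 2 were the lowest. Tie1 fell by 2.57 ± 0.29 (SE, log2) with 6 libraries (adjusted p = 0.00352) and had a log2 fold change of -3.23 ± 0.92 with 8 (adjusted p = 0.158). Kdr, the main signalling receptor for vascular endothelial growth factor, was at 1.91, 1.04, 26.8, 37.4 and 28.6 CPM across libraries labelled knockdown and at 73.2, 55.9 and 76.1 CPM in WT. Kdr thus kept an intermediate level in knockdown 3 to 5 (30.9 ± 5.68 CPM, SD, n = 3, against 68.4 ± 10.95 CPM, SD, n = 3, in WT) and fell by 1.14 ± 0.21. Its call ended without WT 3 (adjusted p = 0.068).

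Tek, the angiopoietin receptor, was at 0.464, 0, 6.48, 10.01 and 10.3 CPM across libraries labelled knockdown and at 21.9, 22.9 and 21.6 CPM in WT, the narrowest spread of a receptor in WT, and fell by 1.31 ± 0.25. Flt1, a decoy receptor for vascular endothelial growth factor, was at 1.49, 1.27, 13.5, 19.8 and 6.96 CPM against 43.7, 35.1 and 45.4 CPM and fell by 1.62 ± 0.35. Neither gene overlapped between groups (11.9% of all genes were lower without overlap with 8 libraries). Flt4, the receptor of lymphatic endothelium, fell by 1.76 ± 0.46, Eng, a co-receptor for transforming growth factor beta and bone morphogenetic proteins, by 1.92 ± 0.42, and Ptprb, the phosphatase that acts on the angiopoietin receptor, by 1.05 ± 0.28. Eng differed from the other receptors in the libraries labelled knockdown 1 and 2, where it was at 23.4 and 29.2 CPM, within the 9.27 to 36.5 CPM of those labelled 3 to 5. Without the library labelled knockdown 4 the calls of Tek, Flt1, Flt4, Eng and Ptprb ended (adjusted p from 0.0503 for Flt1 to 0.128 for Ptprb). Those of Flt1, Flt4, Eng and Ptprb ended without any one WT library too (0.0538 for Eng without WT 1 to 0.168 for Ptprb without WT 3), and that of Tek without WT 2 (0.0633) or WT 3 (0.068). Ptprb was also not called on log2(FPKM + 1) (0.0781) or log2(FPKM + 0.1) (0.0994).

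Of the 7 genes of junctions and surface glycoproteins 6 fell with 6 libraries (9.37% of all genes) and Emcn did not pass. Cldn5, the main claudin of endothelial tight junctions, was at 0, 0, 8.51, 7.25 and 7.38 CPM across libraries labelled knockdown and at 25.6, 32.3 and 35.4 CPM in WT. Its 3 values in knockdown 3 to 5 were among the most even of any member (7.71 ± 0.696 CPM, SD, n = 3), and it fell by 2.01 ± 0.22 (adjusted p = 0.00352). Pecam1, the platelet and endothelial adhesion molecule CD31, was at 52.2, 45.6, 37.7, 29.3 and 17.4 CPM against 122, 73.6 and 126 CPM. Unlike Cldn5 it was highest in knockdown 1 and 2 among the libraries labelled knockdown, though these stayed below WT, and it fell by 1.93 ± 0.32 with 6 libraries.

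Cd34, a sialomucin of small-vessel endothelium and blood progenitors, was at 68.9, 151, 47.3, 24.5 and 28.4 CPM across libraries labelled knockdown and at 101, 109 and 118 CPM in WT. Knockdown 2 was above every WT library, so the groups overlapped with 8 libraries, where the log2 fold change was -0.77 ± 0.57 (adjusted p = 0.525), and without that pair Cd34 fell by 1.70 ± 0.26. Icam2, a ligand of leukocyte integrins, behaved alike across libraries, at 45.2, 48.6, 14.8, 9.03 and 2.81 CPM against 45.5, 29.8 and 60.7 CPM, and fell by 2.34 ± 0.53 with 6 libraries. Esam, an endothelial and platelet adhesion molecule, was at 15.4, 7.25, 26.9, 16.5 and 5.76 CPM against 88.4, 65.1 and 99.2 CPM. Esam fell by 2.36 ± 0.47 and Ecscr, an endothelial surface protein that regulates chemotaxis, by 2.18 ± 0.49. Without the library labelled knockdown 4 the calls of Pecam1, Cd34, Icam2, Esam and Ecscr ended (adjusted p from 0.0545 for Cd34 to 0.105 for Ecscr). Esam was also lost without WT 3 (0.0664), and Icam2 and Ecscr without any one WT library (0.0509 to 0.0821). Emcn, a sialomucin of venous and capillary endothelium, was at 0, 0, 20.3, 5.47 and 4.29 CPM against 45.1, 24.9 and 30.2 CPM. The groups did not overlap, but the log2 fold change of -1.73 ± 0.55 had an adjusted p of 0.0568, so that Emcn was just outside the threshold. It passed without the library labelled knockdown 3 (0.00117), in DESeq2 (0.00617), in limma voom (0.00141), on log2(FPKM + 1) (0.0273), on log2(FPKM + 0.1) (0.0297) and without a composition factor (0.0483).

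**Figure D3:**
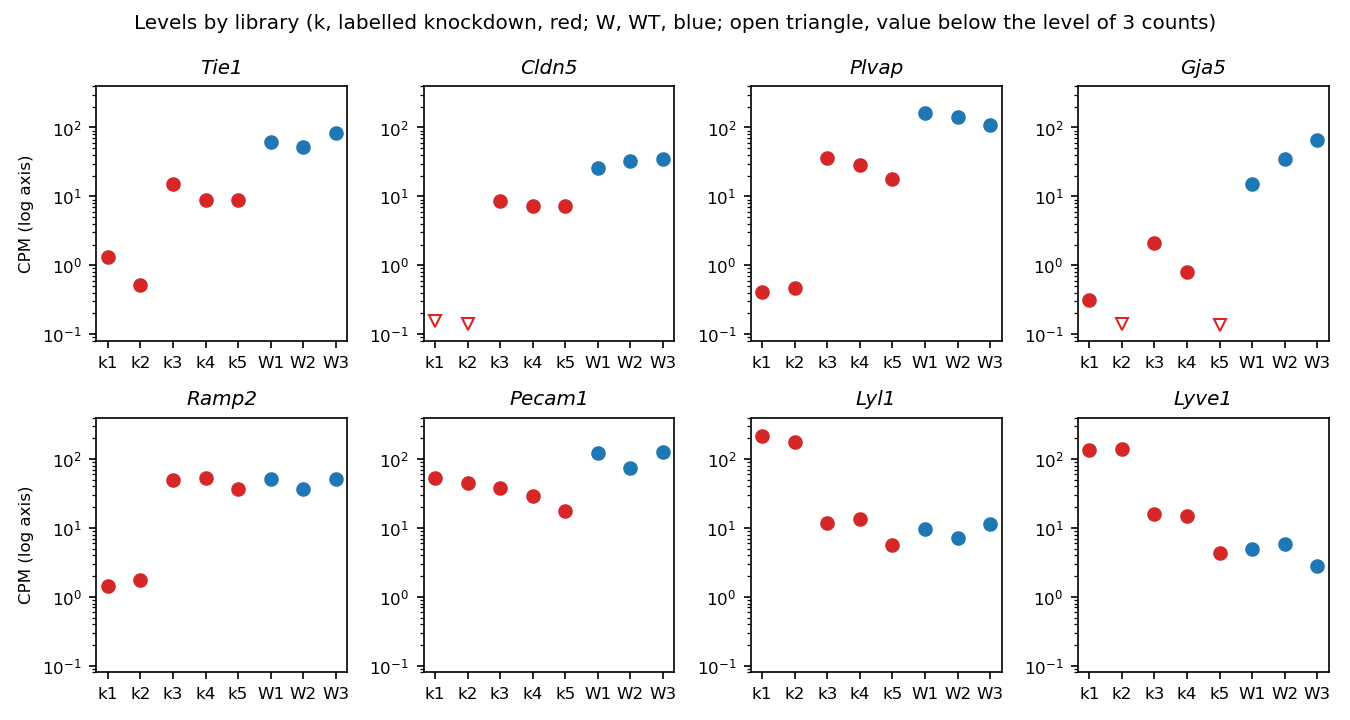
CPM of 8 of the genes in each library on a log axis, with libraries labelled knockdown in red and WT in blue, and open triangles at the level of 3 counts where a value lay under it. Tie1, Cldn5 and Plvap are lower in knockdown 3 to 5 than in WT and lower again in knockdown 1 and 2, Gja5 is low in all 5, Ramp2 is low in knockdown 1 and 2 alone, and Lyl1 and Lyve1 are highest there.

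Both connexins of arterial endothelium fell with 6 libraries (9.37% of all genes), and Gja5 had the largest difference of the 33 tested members. Gja5, which encodes a gap-junction protein of arterial endothelium, was at 0.309, 0, 2.11, 0.795 and 0.0922 CPM across libraries labelled knockdown and at 15.1, 34.9 and 66.2 CPM in WT. The groups were far apart, yet the WT libraries themselves differed by 4.38-fold. Gja5 fell by 5.23 ± 0.86 with 6 libraries (adjusted p = 0.0103). Gja4, its partner in endothelial gap junctions, was at 0, 0, 7.33, 0.935 and 2.54 CPM against 20.5, 10.3 and 88.0 CPM, so that WT 3 held 8.57 times the level of WT 2. Gja4 fell by 3.44 ± 0.91. With quality weights in limma voom neither connexin was called (adjusted p = 0.111 for Gja5 and 0.366 for Gja4), nor was either without the library labelled knockdown 4 (0.0681 and 0.126). The call of Gja4 further ended with the library labelled knockdown 5 left out (0.131), or WT 1 (0.0557) or WT 3 (0.129) and without a filter (0.0838).

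Among the transcription factors the SoxF genes fell together with 6 libraries (9.37% of all genes fell) and the haematopoietic factors did not. Sox7 was at 0.258, 0, 6.92, 4.72 and 4.01 CPM across libraries labelled knockdown and at 18.3, 15.1 and 42.6 CPM in WT. Sox17, which is needed for arterial specification, was at 0, 0, 2.63, 3.23 and 2.26 CPM against 8.43, 10.5 and 20.3 CPM. Sox18, which acts upstream of Prox1 in lymphatic specification, was at 0, 0.283, 5.66, 3.09 and 0.83 CPM against 12.9, 11.3 and 25.9 CPM. None of the 3 overlapped between groups (11.9% of all genes were lower without overlap with 8 libraries). Each was highest in WT 3 (30.7% of all genes). They fell by 2.27 ± 0.43 (Sox7), 2.27 ± 0.41 (Sox17) and 2.38 ± 0.63 (Sox18) with 6 libraries. All 3 calls ended when the library labelled knockdown 4 was left out (adjusted p = 0.078, 0.0646 and 0.13) or WT 3 (0.0623, 0.0684 and 0.127), and that of Sox18 without WT 1 (0.0644) or WT 2 (0.0705).

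Lyl1, a basic helix-loop-helix factor of blood and endothelial cells, was at 214, 176, 11.6, 13.7 and 5.63 CPM across libraries labelled knockdown and at 9.65, 7.18 and 11.6 CPM in WT. It was the most abundant member in knockdown 1 and 2, and the remaining 6 libraries overlapped (log2 fold change 0.13 ± 0.38, adjusted p = 0.834, with a sign that turned in 4 alternatives). Tal1, its close relative, was at 17.6, 23.1, 2.89, 3.37 and 1.38 CPM against 4.65, 5.09 and 5.39 CPM. Its log2 fold change was 0.94 ± 0.95 with 8 libraries, negative with limma voom and on log2(FPKM + 0.1), and -0.98 ± 0.46 with 6 (adjusted p = 0.152), where the 3 libraries labelled knockdown lay below WT. Erg, an ETS factor that maintains endothelial identity, was at 2.73, 7.77, 3.92, 2.62 and 1.38 CPM against 6.69, 3.38 and 6.31 CPM, with the highest value in knockdown 2, and did not pass (log2 fold change -1.04 ± 0.51 with 6 libraries, adjusted p = 0.171).

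Of the genes of venous and activated endothelium 3 of the 3 tested fell with 6 libraries (9.37% of all genes). Madcam1, the addressin that binds a gut-homing integrin of lymphocytes, was at 0, 0, 9.88, 9.21 and 0.415 CPM across libraries labelled knockdown and at 74.8, 51.3 and 71.0 CPM in WT. It was among the 3 highest members in WT per length and fell by 3.33 ± 0.78. Vwf, the clotting glycoprotein stored in Weibel-Palade bodies, was at 0.155, 0.141, 1.48, 0.655 and 2.40 CPM against 5.61, 6.47 and 6.46 CPM and fell by 2.03 ± 0.53. Sele, the cytokine-induced E-selectin, was at 0, 0, 0.481, 0 and 0.369 CPM against 6.78, 2.00 and 2.75 CPM and fell by 3.71 ± 1.03. Selp, the P-selectin gene, lies 56777 bases from Sele on chromosome 1 and had at most 13 counts in a library, too few to test. All 3 calls ended when the library labelled knockdown 4 was left out (adjusted p = 0.094 for Madcam1, 0.089 for Vwf and 0.08 for Sele) and without any one WT library (0.0617 for Madcam1 without WT 1 to 0.14 for Sele without WT 1). The call of Sele further ended with the library labelled knockdown 5 left out (0.0756), and that of Madcam1 without a filter (0.0607).

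The 3 secreted and matrix glycoproteins fell with 6 libraries (9.37% of all genes). Mmrn2, an endothelial matrix protein that binds vascular endothelial growth factor, was at 0, 0.612, 5.14, 4.86 and 2.81 CPM across libraries labelled knockdown and at 18.3, 21.5 and 32.6 CPM in WT and fell by 2.49 ± 0.34 (adjusted p = 0.00621). Its relative Mmrn1, of platelets and lymphatic endothelium, was at 0.515, 0, 1.78, 0.421 and 0 CPM against 8.30, 10.6 and 7.70 CPM and fell by 3.56 ± 1.01. Egfl7, a secreted factor of vessel tube formation, was at 8.40, 15.7, 33.1, 26.7 and 14.6 CPM against 54.9, 57.8 and 67.3 CPM, one of the smaller differences among the members that fell (-1.27 ± 0.29). In all 3 genes the groups did not overlap (11.9% of all genes were lower without overlap with 8 libraries). The calls of Mmrn1 and Egfl7 ended when the library labelled knockdown 4 was left out (adjusted p = 0.149 and 0.0913) and without any one WT library (0.0913 to 0.117 for Mmrn1, 0.0512 to 0.087 for Egfl7).

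Plvap, which forms the diaphragms of fenestrated endothelium, and Ramp2, the partner of the adrenomedullin receptor, had similar levels per length in WT and differed in the libraries labelled knockdown. Plvap was at 0.412, 0.471, 35.6, 29.0 and 17.8 CPM there and at 162, 141 and 110 CPM in WT, and it fell by 2.32 ± 0.28 (adjusted p = 0.00404). Ramp2 was at 1.44, 1.74, 49.5, 53.8 and 36.2 CPM against 51.2, 37.0 and 51.1 CPM. The libraries labelled knockdown 3 to 5 thus overlapped WT in Ramp2 (46.5 ± 9.17 against 46.4 ± 8.19 CPM, SD, n = 3 each), with a log2 fold change of 0.01 ± 0.22 that turned sign in 7 of the 14 alternatives (adjusted p = 0.988), while knockdown 1 and 2 were more than an order of magnitude lower. Aqp1, a water channel of endothelium and red cells, was at 0.0515, 0.518, 2.92, 1.59 and 1.34 CPM against 11.6, 6.99 and 51.4 CPM and fell by 3.57 ± 0.75. The call of Aqp1 ended when the library labelled knockdown 4 was left out (adjusted p = 0.0947), knockdown 5 (0.0687) or WT 3 (0.068) and with quality weights in limma voom (0.329).

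Of the lymphatic genes on the list Flt4 and Mmrn1 fell with 6 libraries (9.37% of all genes), while Lyve1 and Prox1 did not pass. Lyve1, a hyaluronan receptor of lymphatic endothelium and of some macrophages, was at 137, 138, 16.1, 15.1 and 4.33 CPM across libraries labelled knockdown and at 5.00, 5.83 and 2.79 CPM in WT. It was high in knockdown 1 and 2, above WT in knockdown 3 and 4 and within the WT range in knockdown 5. The log2 fold change was 3.77 ± 1.28 with 8 libraries (adjusted p = 0.195) and 1.38 ± 0.52 with 6 (0.0881), and it passed with 6 libraries in DESeq2 (0.0329), in limma voom (0.0104) and in edgeR without the library labelled knockdown 5 (0.0306). Prox1, the transcription factor that specifies lymphatic endothelium and is also made in other tissues, was at 5.82, 4.62, 5.07, 9.45 and 2.44 CPM against 10.2, 11.4 and 6.79 CPM. The groups overlapped, and the log2 fold change of -0.74 ± 0.49 with 6 libraries did not pass (adjusted p = 0.297). The values of Flt4 and Mmrn1 are given with the receptors and the matrix proteins. The libraries labelled knockdown 1 and 2 were the highest both in Lyve1 and in the summed macrophage genes. In both, knockdown 5 was the lowest library labelled knockdown, with a macrophage sum of 1505 CPM against 2184 in knockdown 3 and 2542 in knockdown 4. Knockdown 5 was above WT in that sum and within the WT range in Lyve1. The part of macrophage RNA in the level of Lyve1 was not tested.

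Compared per length, on the deposited FPKM values, the members covered a wide range in WT. The highest were Plvap (85.8 ± 14.9 FPKM, SD, n = 3), Ramp2 (80.3 ± 11.9) and Madcam1 (70.01 ± 12.5), which did not differ from each other beyond this spread, followed by Egfl7 (62.0 ± 7.54), Esam (57.8 ± 11.1) and Cd34 (53.1 ± 5.21). Next came Icam2 (51.6 ± 17.4), Ecscr (51.1 ± 9.68) and Pecam1 (39.4 ± 10.02). Emcn, Gja4, Cldn5 and Eng lay between 29.1 and 30.4 FPKM, and Tie1 (20.05 ± 4.63) was the highest of the receptor kinases, ahead of Kdr (13.4 ± 1.83), Flt1 (9.83 ± 1.36), Tek (5.52 ± 0.324) and Flt4 (4.11 ± 0.302). Among the SoxF genes the order was Sox18 (13.4 ± 6.49), Sox7 (9.32 ± 5.56) and Sox17 (4.35 ± 2.12). The range of Sox7 over the WT libraries overlapped that of each of the others, while those of Sox18 and Sox17 did not overlap. Compared within a library, the order was the same in all 3 WT libraries. The lowest were Prox1, Sele, Vwf and Selp, at 1.37 ± 0.350, 1.11 ± 0.704, 0.803 ± 0.0907 and 0.0867 ± 0.0850 FPKM. In the libraries labelled knockdown 3 to 5 Ramp2 was the highest, at a mean of 74.7 FPKM, against 16.1 FPKM for Plvap and 6.91 FPKM for Madcam1.

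**Figure D4:**
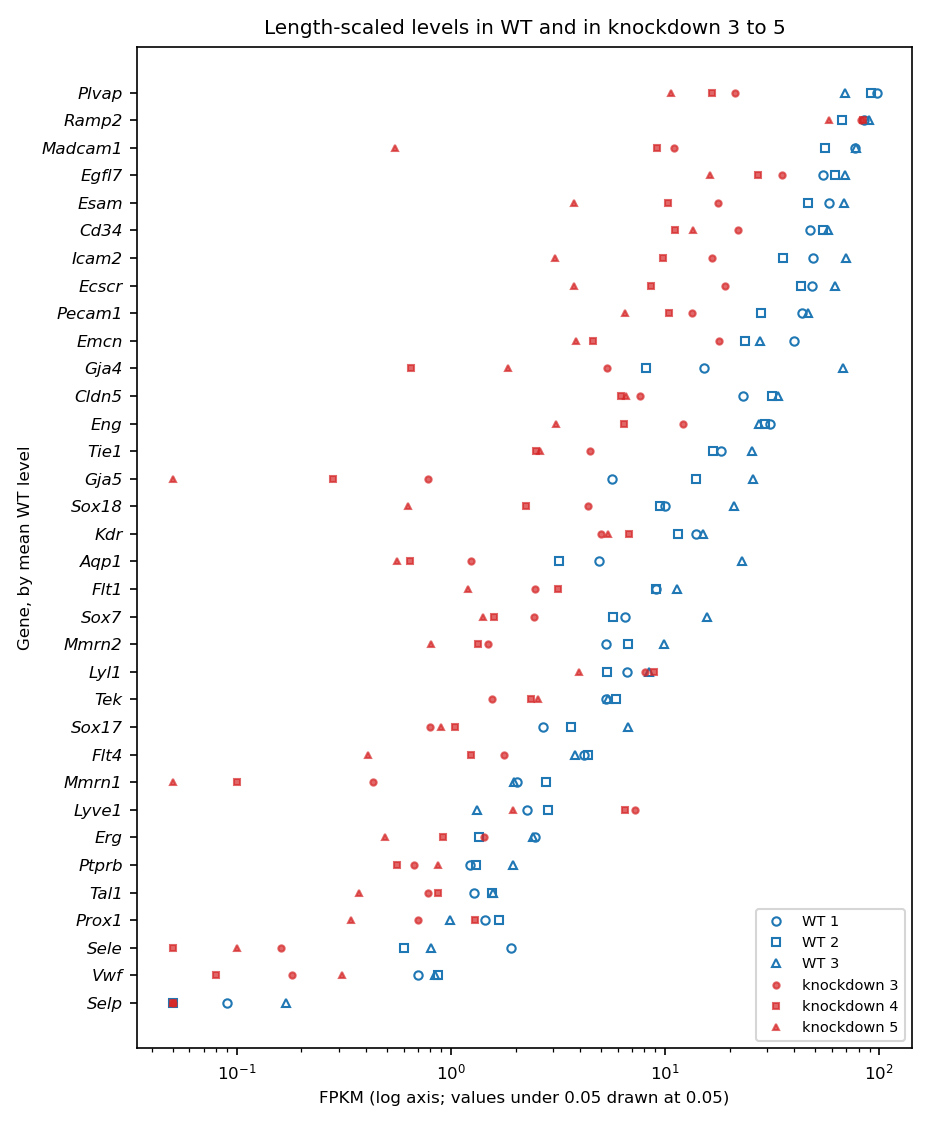
FPKM of each member on a log axis in the 3 WT libraries (blue, open) and the libraries labelled knockdown 3 to 5 (red), ordered by the mean in WT, with values under 0.05 drawn at 0.05. Plvap, Ramp2 and Madcam1 are the highest in WT, and Ramp2, Lyl1 and Lyve1 are the members whose red points are not shifted to the left.

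Within WT the median variation of the members was above that of all genes, in a comparison not matched for level. Not every member varied much, and Tek was at 22.2 ± 0.67 CPM (SD, n = 3). The median coefficient of variation over the 3 WT libraries was 23.2% for the 33 tested members and 14.7% for all 15115 genes tested. WT 3 was the highest WT library for 20 of the 33 members (30.7% of all genes). The genes that differed most between WT libraries were Gja4 (8.57-fold from lowest to highest), Aqp1 (7.36-fold), Gja5 (4.38-fold), Sele (3.39-fold) and Sox7 (2.82-fold). In all of these but Sele the highest library was WT 3. Dll4, a Notch ligand of arterial endothelium outside the 34, was picked with its values known and was also highest in WT 3, at 14.6, 13.3 and 32.7 CPM in WT 1, 2 and 3. Plvap, at 162, 141 and 110 CPM, was lowest in WT 3. Over the libraries labelled knockdown 3 to 5 the medians were 47.9% for the members and 27.1% for all genes. Knockdown 3 was the highest for 23 members (38.9% of all genes). Knockdown 5 was the lowest for 24, with the share of all genes not computed.

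Of 34 further endothelial genes outside the list, 33 were tested with 6 libraries, of which 12 fell and 21 did not pass, with no gene higher (median log2 fold change -1.44), where 9.37% of all genes fell and 11.1% rose. Cdh5, which encodes VE-cadherin of endothelial junctions, was at 2.63, 3.20, 25.2, 16.0 and 10.3 CPM across libraries labelled knockdown and at 112, 89.8 and 136 CPM in WT. It fell by 2.71 ± 0.33. S1pr1, the sphingosine 1-phosphate receptor, fell by 1.96 ± 0.22, Rasip1, an endothelial regulator of lumen formation, by 2.05 ± 0.27 and Ushbp1 by 2.44 ± 0.37. With 6 libraries DESeq2 called 13 lower (13.8% of all genes) and 3 higher (16.2%). Limma voom called 17 lower (22.2%) and 3 higher (23.4%). Among those higher in DESeq2 were Calcrl (log2 fold change 0.98, adjusted p = 0.0493) and Thbd (0.84, adjusted p = 0.0475), neither of which passed in edgeR. The count of lower genes was 3 without the library labelled knockdown 4 (0.492% of all genes), 6 without WT 1 (3.61%), 6 without WT 2 (1.25%) and 4 without WT 3 (0.828%). With 8 libraries none of the 34 was called in edgeR, while 10 were lower at an unadjusted p under 0.05 (5.9% of all genes), DESeq2 called 8 lower (3.91%) and limma voom 11 (11.5%).

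Of 17 tested angiogenic ligands 1 fell and 2 rose with 6 libraries, and 14 did not pass (median -0.05), shares near those of all genes (9.37% lower and 11.1% higher). Apln, the ligand of the apelin receptor and itself made by endothelial tip cells, fell by 1.98 ± 0.47. Fgf2, a fibroblast growth factor, rose by 2.95 ± 0.68 and Apela, the other ligand of that receptor, by 1.96 ± 0.59. Vegfa, the main ligand of Kdr and Flt1, was at 3.45, 6.83, 46.0, 71.2 and 90.5 CPM across libraries labelled knockdown and at 36.1, 51.9 and 61.5 CPM in WT and did not pass (adjusted p = 0.253). Angpt2, a ligand of Tek made by endothelium, had a log2 fold change of -1.74 ± 0.59 (adjusted p = 0.0686 in edgeR). Angpt2 passed in DESeq2 (0.0151), in limma voom (0.0279), on log2(FPKM + 1) (0.0306), on log2(FPKM + 0.1) (0.0463) and in edgeR without the library labelled knockdown 3 (0.0429). Of 12 markers of mural cells, which ensheath vessels, 4 rose and 8 did not pass, with no gene lower (median 0.51), where 11.1% of all genes rose and 9.37% fell. Those that rose were Abcc9 (2.11 ± 0.34), Cspg4 (1.61 ± 0.35), Pdgfrb (0.98 ± 0.27) and Notch3 (0.98 ± 0.28).

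Other cell types' markers differed between the same libraries, and their counts with 6 libraries stand beside 9.37% of all genes lower and 11.1% higher. Summed over 20 genes, macrophage markers gave the levels stated at the start, and 16 of 19 tested rose with 6 libraries, led by Aif1, Ptprc, Csf1r and Mpeg1. The 13 megakaryocyte and platelet markers summed to 586 to 802 CPM in knockdown 1 and 2. They summed to 153 to 326 CPM in knockdown 3 to 5 and to 21.5 to 48.9 CPM in WT. Pf4, which is also made by macrophages, was at 783, 558, 141, 296 and 120 CPM against 37.9, 10.1 and 3.71 CPM. It made up most of the sum in the libraries labelled knockdown and in WT 1, but not in WT 2 or WT 3. Of the 8 markers tested Pf4 and Gp1bb rose. The 12 erythroid genes summed to 134 to 159, 1998 to 7444 and 3423 to 8102 CPM in the same 3 sets, and 3 of 12, the embryonic globins Hbb-y, Hba-x and Hbb-bh1, fell. Neural crest markers fell in 11 of 15 cases, among them Sox10, Ednrb and Gfra1, and 7 of 11 mesenchyme markers rose, led by Col6a3, Col1a2, Pdgfra and Twist1. Of 6 mesothelium markers Upk3b and Lrrn4 fell. The part of these differences in the endothelial result was not tested, and the labels gave no batch or sorting date.

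**Figure D5:**
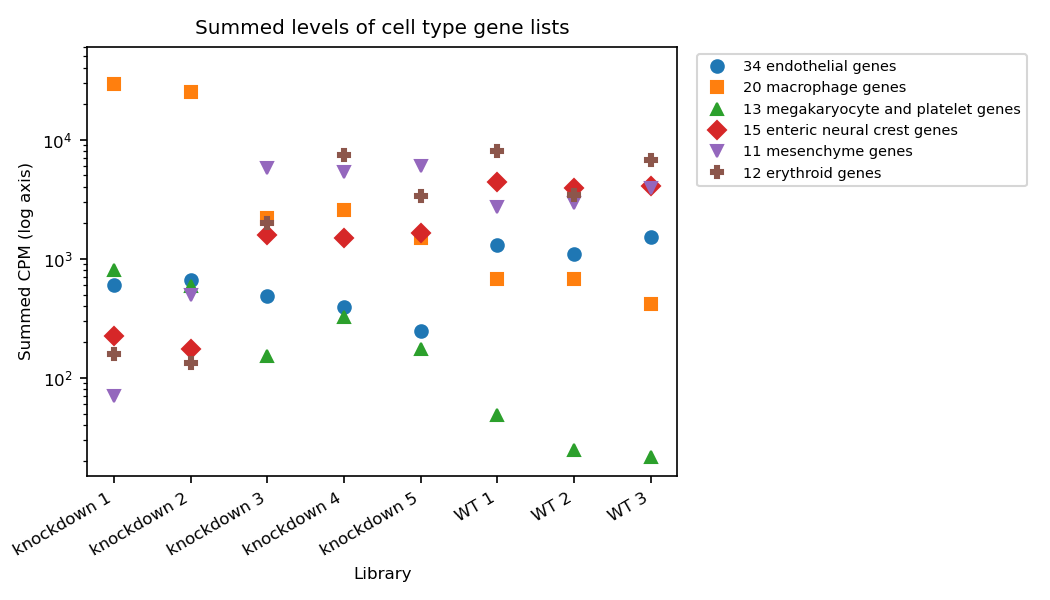
Summed CPM, on a log axis, of the 34 endothelial genes and of marker lists of 5 other cell types in each library. Macrophage genes are highest in the libraries labelled knockdown 1 and 2, neural crest genes are highest in WT, and the endothelial sum is 1098 to 1536 CPM in WT and 246 to 657 CPM in the libraries labelled knockdown.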

How the data were processed

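The deposited table gave 4 kinds of value per gene and library. Expected counts, per the file headers, are the authors' estimates with no scaling. Values that were not whole made up 17.6% to 19.8% of each library. FPKM and TPM were scaled by the authors to length and library size, per the file headers. Normalised counts, a signal, were made by the authors, per the file headers. TPM, the normalised counts and 8 columns of group means were not used. HISAT, Bowtie2 and build GRCm38.p6 are named in the submitters' processing notes; the counting tool and annotation are not given in the sources used here. Strand and molecular identifiers are not kept by Smart-seq2. Reads of overlapping genes (for example Lyl1 and Nfix, Plvap and Gtpbp3, Eng and Fpgs) thus cannot be told apart by strand. Gja5, Kdr, Flt1, Emcn, Cd34, Tal1, Prox1, Sele and Selp also overlap annotated genes. The limit of 3 counts covers counting error only, while SE and SD include variation among libraries.

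Expected counts were rounded to whole numbers, filtered with filterByExpr, scaled with TMM and tested two-sided in edgeR 4.0.16 (glmQLFit, robust, and glmQLFTest; R 4.3.3), with Benjamini-Hochberg adjustment over all genes tested and a threshold of 0.05. The SE of an edgeR log2 fold change was derived as its absolute value divided by the square root of the quasi-likelihood F statistic. CPM used the scaling of 8 libraries throughout. Alternatives used DESeq2 1.42.0, limma 3.58.1, other scalings, filters and pseudocounts, and each library left out in turn. All 34 members matched RefSeq identifiers of GRCm38.p6. Per-library values are given for up to 4 members of each role with the smallest p with 6 libraries and for members that went against their role; other lists name up to 4 genes with the smallest p, and a neural crest gene that this rule names is not reported here. Other genes named were chosen after their values were seen. The members, the lists and the split into 8 and 6 libraries were chosen with earlier results of these data known. In data simulated with 8 libraries and 15006 genes, calls recovered 45 of 60 genes at 32-fold, 18 of 70 at 4-fold and 0 of 70 at 2-fold, and 2 of 65 calls were false. With 6 libraries and 14880 genes, the same sizes gave 59 of 60, 53 of 70 and 24 of 70, with 12 of the 148 calls on unchanged genes, above the nominal rate. Only genes above a minimum mean count were changed, and simulated libraries of a group shared the same mean. The rates thus do not cover members with few counts or the split among libraries labelled knockdown. Figures were made with matplotlib 3.10.9 in Python 3.11.15.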

Additional observations from a re-analysis of the deposited data

Results flagged for a closer look

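Each of the 34 genes was checked for a library far from the others among the 5 labelled knockdown, by the gap to the nearest value as a share of the range, a check that marks about 1 group in 20 by chance. It marked 2 genes, both in the library labelled knockdown 3. Emcn was at 20.3 CPM there, with the next highest library at 5.47 CPM and a gap of 0.73 of the range. Mmrn1 was at 1.78 CPM, with the next at 0.515 CPM and a gap of 0.71 of the range. The 3 WT libraries are too few for this check.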

How the results depend on the processing

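With 8 libraries, 0 members were called in either direction in edgeR under both other scalings and both other filters. Limma on both FPKM scales also called 0 members. DESeq2 called 12 lower (3.91% of all genes) and 2 higher (10.5%), and limma voom 17 lower (11.5%) and 1 higher (12.5%). Leaving out each library in turn gave 0 called and a median log2 fold change of -2.91 to -2.15. Other endothelial genes gave 8 lower in DESeq2 (3.91% of all genes), 11 in limma voom (11.5%) and 0 without any 1 library. The median of these genes was -1.59 to -1.08 over the libraries left out. Without a composition factor the median of all genes moved from 0.07 to -0.17, and on log2(FPKM + 1) to -0.21. Deviations from the group mean had correlations of -0.03, 0.04 and -0.04 between same-numbered libraries. The mean was that of all 5 libraries labelled knockdown, among which knockdown 1 and 2 stood apart. These correlations therefore cannot decide whether the replicate numbers pair the libraries. With a replicate block the medians were -4.29 for the members and -2.86 for the other endothelial genes, with 0 members called. The block leaves the unpaired libraries labelled knockdown 4 and 5 out of the difference by construction. No paired analysis was possible with 6 libraries because only number 3 is in both groups.

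With 6 libraries the count of lower members was 5 to 27 and that of higher members 0 to 1 over the libraries left out. The median of the members was -2.26 to -1.78. The share of all genes that fell was 0.492% without knockdown 4, 3.61% without WT 1, 1.25% without WT 2 and 0.828% without WT 3. It was not computed without knockdown 3 or 5, nor was the share that rose in any of these fits. DESeq2 and limma voom each called 1 member higher (16.2% and 23.4% of all genes). Other endothelial genes gave 3 to 14 lower and 0 to 2 higher over the libraries left out, with a median of -1.72 to -1.23. Of these genes 3 were higher in DESeq2 (16.2% of all genes) and 3 in limma voom (23.4%). The median of these genes was -0.91 on log2(FPKM + 1). Signs turned for Tal1 with 8 libraries (-0.72 in limma voom, -0.091 on log2(FPKM + 0.1)). With 6 libraries they turned for Ramp2 (-0.075 without a composition factor, -0.11 on log2(FPKM + 1), -0.11 on log2(FPKM + 0.1), -0.0018 without a filter, and -0.14 to 0.16 over the libraries left out, negative without knockdown 3, knockdown 4 or WT 2) and for Lyl1 (-0.015 on log2(FPKM + 1), -0.026 on log2(FPKM + 0.1), and -0.12 to 0.42 over the libraries left out, negative without knockdown 4 or WT 2). The sign of Wt1, a mesothelium gene, turned without knockdown 5 (-0.32 to 0.94 over the libraries left out). The causes were not tested. Levels under 0.155 CPM are at the limit of the depth.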
